A study of Mus musculus with 6 samples.

Results

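The genes for the cytosolic ribosomal proteins were examined in a list of accessible chromatin regions from Beko cells, which are progenitor T cells of the mouse grown as a line with constitutive Notch signaling. Members were all protein-coding GENCODE genes whose symbol is Rpl or Rps followed by a digit, together with Rplp0, Rplp1, Rplp2 and Rpsa, with the Rps6k kinases left out. This gave 138 of 22380 protein-coding genes, of which 83 have more than 1 exon and 55 have a single exon in every annotated transcript. The multi-exon genes hold 47 named for the large subunit, 32 for the small subunit and 3 for the P stalk, paralogs included, and Rps19bp1, and 76 of them remain once the paralogs and Rps19bp1, which only shares the name pattern, are set aside. ATAC-Seq, in which a transposase inserts adapters into open DNA, was carried out on 3 libraries from cells exposed to the γ-secretase inhibitor DAPT (GSI) for 24 h and on 3 libraries from cells given the solvent DMSO. GSI blocks the release of the Notch intracellular domain. All 6 libraries come from 1 cell line, and the labels do not say whether the replicates are separate cultures. The data analysed here are 1 list of 32527 peaks for all libraries, without a height, a library or a treatment for any peak, so that GSI and DMSO could not be compared at any gene and no test was made.

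Each ribosome is built from ribosomal RNA and one copy of most ribosomal proteins, and cells that grow and divide, such as progenitor T cells, transcribe these genes at high rates. Their mRNAs typically begin with a cytidine followed by a run of pyrimidines, the 5′ terminal oligopyrimidine (TOP) tract, through which the growth kinase mTOR controls their translation. Many of the genes carry small nucleolar RNAs in their introns, and reverse transcription of their abundant mRNAs has left many intronless copies in mammalian genomes. As a check of the cell type, 8 of 10 genes of progenitor T cells had a peak within 1 kb of a start (Cd3e, Cd3g, Rag1, Bcl11b, Tcf7, Gata3, Lck and Notch1, but not Cd3d and Ptcra), against 0 of 4 B-cell genes, 0 of 4 myeloid genes and 0 of 1 liver gene.

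The annotated starts were searched for the tract for which these genes are known. A start with C at the first base and at least 4 further pyrimidines was annotated for 25 of the 83 multi-exon genes (30.1%, 95% Wilson interval 21.3 to 40.7), compared with 6.74% of the other multi-exon coding genes. The tract at these starts ran for a median of 8 bases (range 5 to 15, counted to at most 15). The 5 windows below, read from mm9, hold 15 bases before the start in lower case and then the tract in capitals. They show the tract in genes with different roles and with and without a peak.
Rpl5 (chr5:108329576-108329605, plus strand): gtacgtgactccggtCTTTTTCCCCCTTag
Rpl7 (chr1:16094469-16094498, minus strand): gcatgcgccacctttCTCTCTTCTTTTCCg
Rpl10 (chrX:71516181-71516210, plus strand): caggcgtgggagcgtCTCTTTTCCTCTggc
Rps19 (chr7:25669637-25669666, plus strand): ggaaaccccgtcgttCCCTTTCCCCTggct
Rps21 (chr2:179992067-179992096, plus strand): cttaccgaggacccgCCCTCCTgcccaata

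Rpl5 binds the ribosomal RNA of the large subunit's central protuberance and the p53 regulator Mdm2, Rpl10 joins the large subunit late in its assembly, and Rps19 is the gene most often mutated in Diamond-Blackfan anaemia. Of the 25 genes, 22 had this start inside a peak. The exceptions included Rps21, which had no peak at any start, and Rpl13a, whose peak lies at another start of the gene. In these 22 genes the median distance from the pyrimidine start to the edge of the peak was 497 bp on the upstream side and 418.5 bp on the downstream side. Genes without such an annotated start include well-known ones. The windows of Rps6, the substrate of the S6 kinases, of Rpl11, the partner of Rpl5, of Rplp0 and of Rpsa, a small subunit protein also known as the laminin receptor precursor, are given for contrast. These also begin 15 bases before the start, and the start shown is the most upstream annotated one. Rps6 has 4 annotated starts, Rpl11 10, Rplp0 4 and Rpsa 1, and none of them met the definition.
Rps6 (chr4:86503302-86503331, minus strand): gccggctgttctcgcgagaacttagagcgc
Rpl11 (chr4:135609329-135609358, minus strand): ccctcgtttgtctgcctagaagaaaagccc
Rplp0 (chr5:116009461-116009490, plus strand): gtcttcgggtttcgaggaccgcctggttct
Rpsa (chr9:120036869-120036898, plus strand): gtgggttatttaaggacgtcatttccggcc

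The share depends on which annotated start is read. The main start, which is the start annotated for most transcripts and, in a tie, the most upstream one, met the definition in 3 of 83 genes (3.61%, against 2.07% of other multi-exon genes). Where a peak held any start of a gene, the main start was taken among the starts inside that peak. In 73 of the 83 genes no 2 transcripts share a start. Some of these, such as Rpl3 and Rpsa, have only 1 annotated transcript, and in the rest the tie decides. In neither case does the main start say which start is used. Of all 349 annotated starts of the multi-exon genes, 32 met the definition (9.17%, against 2.11% of 66835 starts). A run of at least 8 pyrimidines that opens with C was found between 50 bases before and 100 bases after the main start in 66 of 83 genes (79.5%, interval 69.6 to 86.8), a definition set after the data had been seen. The same run occurred in 34.7% of other multi-exon genes with a CpG-rich start and in 33.8% of mitochondrial ribosomal protein genes. The longest run had a median of 9 bases in the cytosolic genes, 6 in the CpG-rich genes and 7 in the mitochondrial ones.

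Most multi-exon ribosomal protein genes had an accessible start, as 75 of 83 had a peak no further than 1 kb from an annotated start (90.4%, interval 82.1 to 95), and in all 75 the start was inside the peak. The same was measured in 46.9% of the other coding genes and in 52.1% of the other multi-exon genes. CpG-rich starts, for which the ratio of observed to expected CpG had to reach 0.6 and GC content 50% over 500 bp on each side, were held by 74 of the 83 genes (89.2%) and by 49.5% of other multi-exon genes. The 9622 other multi-exon genes with such a start had a peak in 78.0%, and the 74 ribosomal protein genes with such a start in 91.9% (interval 83.4 to 96.2). The 9 genes below these limits had a peak in 7 cases (77.8%, interval 45.3 to 93.7), against 52.1% of other multi-exon genes of any CpG content. The share for other genes below these limits alone was not computed. CpG content was read around the main start, which was taken inside the peak where a peak held any start. The CpG class was therefore not set independently of having a peak, in either group of genes. Intervals describe the counts only, since genes are not replicates, and none of these shares was tested against another.

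By subunit, peaks were present at 43 of 47 genes of the large subunit (91.5%), at 28 of 32 of the small subunit (87.5%) and at all 3 genes of the P stalk, the protrusion that recruits translation factors. Among 19 genes mutated in Diamond-Blackfan anaemia, 17 had a peak, and Rpl15 and Rps29 had none. All 4 genes on the X chromosome had one, whereas 296 of 928 other coding genes there did (31.9%). The X-linked peaks measured 1202 bp at Rpl10, 994 bp at Rpl36a, 880 bp at Rpl39 and 976 bp at Rps4x. Among related gene groups, a peak was found at 72 of 77 mitochondrial ribosomal protein genes (93.5%), which serve the ribosomes of mitochondria, at 30 of 30 ribosome biogenesis genes and at 15 of 18 other genes known for TOP mRNAs (83.3%). The 77 mitochondrial genes were taken by symbol without a split by exon number, unlike the cytosolic genes. They include Mrps36-ps1, whose nearest peak was 176958 bp away. The other TOP genes without a peak were Eef1d, Eef2 and Hnrnpa1, with the nearest peak 11547, 1187 and 9716 bp away, so that Eef2 lay just outside the limit of 1 kb. Outside the symbol rule, Gnb2l1, which also encodes a ribosomal component, had a peak of 1073 bp, while the nearest peak to Fau, the gene of a further small subunit protein, was 3068 bp away.

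**Figure D1:**
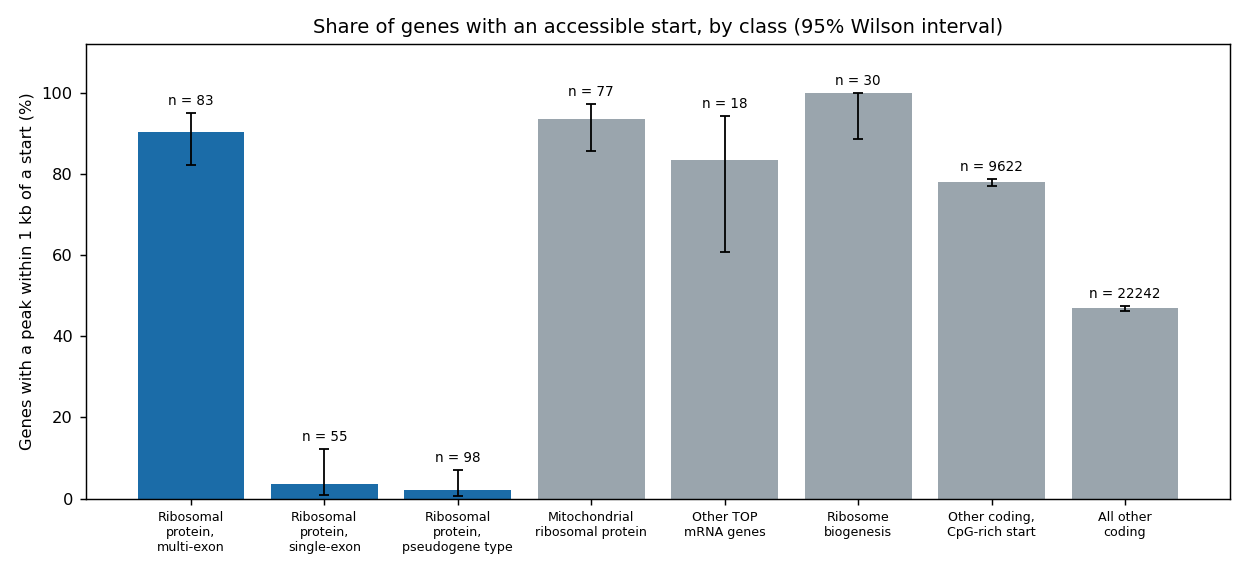
Percentage of genes with a peak within 1 kb of an annotated start (y axis) in 8 classes of genes (x axis), with the number of genes above each bar and the 95% Wilson interval as error bar. The multi-exon ribosomal protein genes stand at 90.4% beside the mitochondrial ones at 93.5%, and the single-exon genes of the family stand at 3.64%.

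No multi-exon ribosomal protein gene was near the limit of 1 kb. Every gene counted as having a peak held a start inside it, and extending the limit to 2 kb added none. The 8 multi-exon genes without a peak comprise 6 constituents of the ribosome and 2 tissue-restricted paralogs. Rpl3, which lies close to the peptidyl transferase center, had its nearest peak 6193 bp downstream. Rps21, a small protein of the small subunit, had a distance of 5600 bp, Rps29 one of 9158 bp, to a peak at the start of Lrr1, and Rpl15 one of 31101 bp, to a peak at Nr1d2. All 6 starts were CpG-rich, with ratios such as 0.73 at Rps21, 0.75 at Rpl15, 0.79 at Rpl3 and 0.91 at Rps29, against a median of 0.81 for the multi-exon genes. The assembly has no undetermined bases in these windows. A copy elsewhere in the genome covered 35.5% of the window of Rps29 and 0.0% of those of the other 5. Neighboring coding genes within 50 kb had a peak at their start in 14 of 22 cases for these 6 genes and in 191 of 271 cases (70.5%) for the 75 genes with a peak.

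The promoters of 3 of these 6 genes are printed because they hold promoter cores although no peak was listed there, followed by Rps6, whose start lies in a peak of 1039 bp. Each window is the mm9 sequence along the gene's strand from 120 bases before the main start to 20 bases from it on, with the cores GGGCGG (SP factors) and CCGGAAG (ETS factors such as GABP) in capitals in either orientation.
Rpl3 (chr15:79913817-79913956, minus strand): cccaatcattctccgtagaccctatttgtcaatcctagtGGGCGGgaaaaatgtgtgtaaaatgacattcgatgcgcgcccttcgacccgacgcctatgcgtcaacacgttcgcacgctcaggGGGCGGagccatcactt
Rps21 (chr2:179992003-179992142, plus strand): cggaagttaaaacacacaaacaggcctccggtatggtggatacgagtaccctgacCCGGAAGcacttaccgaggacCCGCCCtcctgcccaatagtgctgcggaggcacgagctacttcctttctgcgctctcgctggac
Rps29 (chr12:70260154-70260293, minus strand): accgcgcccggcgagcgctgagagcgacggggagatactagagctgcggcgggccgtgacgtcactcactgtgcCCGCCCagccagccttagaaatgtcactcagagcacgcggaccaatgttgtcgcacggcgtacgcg
Rps6 (chr4:86503297-86503436, minus strand): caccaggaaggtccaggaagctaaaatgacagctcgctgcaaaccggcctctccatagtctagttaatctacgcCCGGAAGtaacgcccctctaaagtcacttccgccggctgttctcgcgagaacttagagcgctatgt

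The paralog pairs differed in what the list holds for them. Rpl3 and its muscle paralog Rpl3l both lacked a peak, and the CpG ratio at Rpl3l was 0.18. Rpl39 had a peak of 880 bp and its paralog Rpl39l, known from testis, had none within 24803 bp. Rpl10 had a peak of 1202 bp and the single-exon Rpl10l, also known from testis, had none within 1111096 bp. Both genes had a peak in the pairs Rpl7 and Rpl7l1 (1817 and 1218 bp), Rpl22 and Rpl22l1 (998 and 848 bp) and Rps27 and Rps27l (709 and 1164 bp). Loss of Rpl22 is known to arrest αβ T-cell development in mice.

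The middle of the widths lay close to that of other CpG-rich promoters. At the median, the 75 peaks were 935 bp wide (95% interval 892 to 998 from order statistics, quartiles 832 and 1066, range 556 to 1817), and no peak served more than 1 member. Peaks at other CpG-rich multi-exon genes had a median of 964 bp with quartiles of 800 and 1164. Over the whole list the median was 551 bp, and 81.6% of all peaks were narrower than the median ribosomal protein peak. Widths were 945 bp at the median of the large subunit, 952.5 bp for the small subunit and 834 bp for the stalk, compared with 842 bp for mitochondrial ribosomal proteins and 1112 bp for other TOP genes. Among the widest peaks were those of Rpl7 (1817 bp), Rps3a (1435 bp), Rpl14 (1318 bp) and Rpl38 (1259 bp), the last known for its part in translation of Hox mRNAs. The narrowest were those of Rpl35 (556 bp), Rpl18 (601 bp), Rps28 (611 bp), Rpl23a (627 bp) and Rps19bp1 (646 bp), which encodes a protein that binds Rps19 and is no part of the ribosome.

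Genes followed for their known roles are among the 75 genes with a peak. Of them, only Rplp0 and Rps19 had widths outside the quartiles of 832 and 1066 bp. Peaks measured 807 bp at Rplp0, 892 bp at Rplp1, 834 bp at Rplp2, 858 bp at Rpsa, 946 bp at Rpl5, 890 bp at Rpl11, 1039 bp at Rps6 and 1220 bp at Rps19. Spearman's rho of peak width over the 75 genes was 0.13 with the CpG ratio, 0.09 with GC content, -0.05 with gene length and -0.03 with the number of annotated starts, given as a description since all points come from 1 list.

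**Figure D2:**
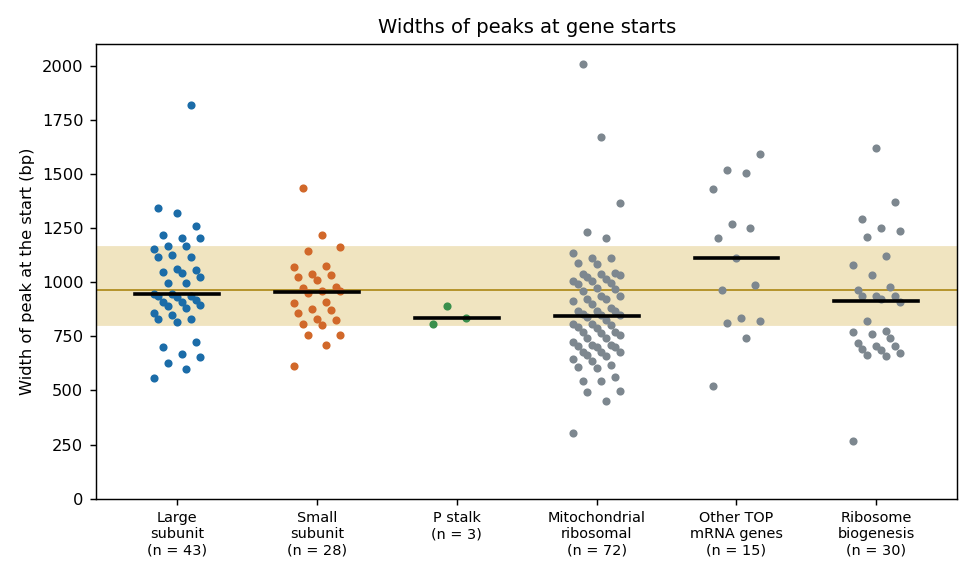
Width in bp (y axis) of the peak at the start of each gene, 1 point per gene, for 6 groups (x axis, with the number of genes, Rps19bp1 left out), where black lines are medians and the shaded band and its line are the quartiles and the median of 964 bp of other CpG-rich coding genes. The medians of 945 bp for the large and 952.5 bp for the small subunit lie near that line, and Rpl7 stands highest among the cytosolic genes at 1817 bp.

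Which side of the peak was longer depended on the start it was measured from. From the main start, peaks reached further downstream than upstream in 46 of 75 genes (61.3%, against 59.8% of other CpG-rich genes). The median reach was 378 bp upstream and 514 bp downstream, and the median difference within a gene was 122 bp (84 bp in other CpG-rich genes). From the most downstream annotated start inside the peak, a choice added after the data had been seen, the downstream side was the longer in 20 of 75 genes (26.7%, against 38.5%), and the median difference was -167 bp (-102 bp in other CpG-rich genes). From the pyrimidine starts it was the longer in 10 of 22 genes. First exons of the 83 genes had a median of 84 bp, against 222 bp in other CpG-rich genes. The peak held all of exon 1 in 74 of 75 genes, Rpl18 being the exception. Its downstream edge fell in intron 1 in 38 genes, in intron 2 in 18, in intron 3 in 4, in exon 2 in 9 and in exon 3 in 5.

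Genes with a divergent partner, a coding gene that starts on the other strand within 1 kb upstream, were considered on their own. All 11 such genes had a peak, with a median width of 1071 bp, a reach from the main start of 604 bp upstream and 382 bp downstream, and a longer downstream side in 27.3%. None of these values was tested against those of the other genes. Their partners were Lrsam1 (at Rpl12), Sphk2 (Rpl18), Iqcg (Rpl35a), Mgat2 (Rpl36al), Zwilch (Rpl4), Med22 (Rpl7a), Lias (Rpl9), Vps52 (Rps18), Trappc4 (Rps25), Rab13 (Rps27) and Ndufa7 (Rps28). Divergent partners were held by 13.3% of the cytosolic genes, 29.9% of the mitochondrial ribosomal protein genes and 16.3% of other CpG-rich genes. Among the 62 peaks with no other coding start within 1 kb, the median width was 913.5 bp.

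**Figure D3:**
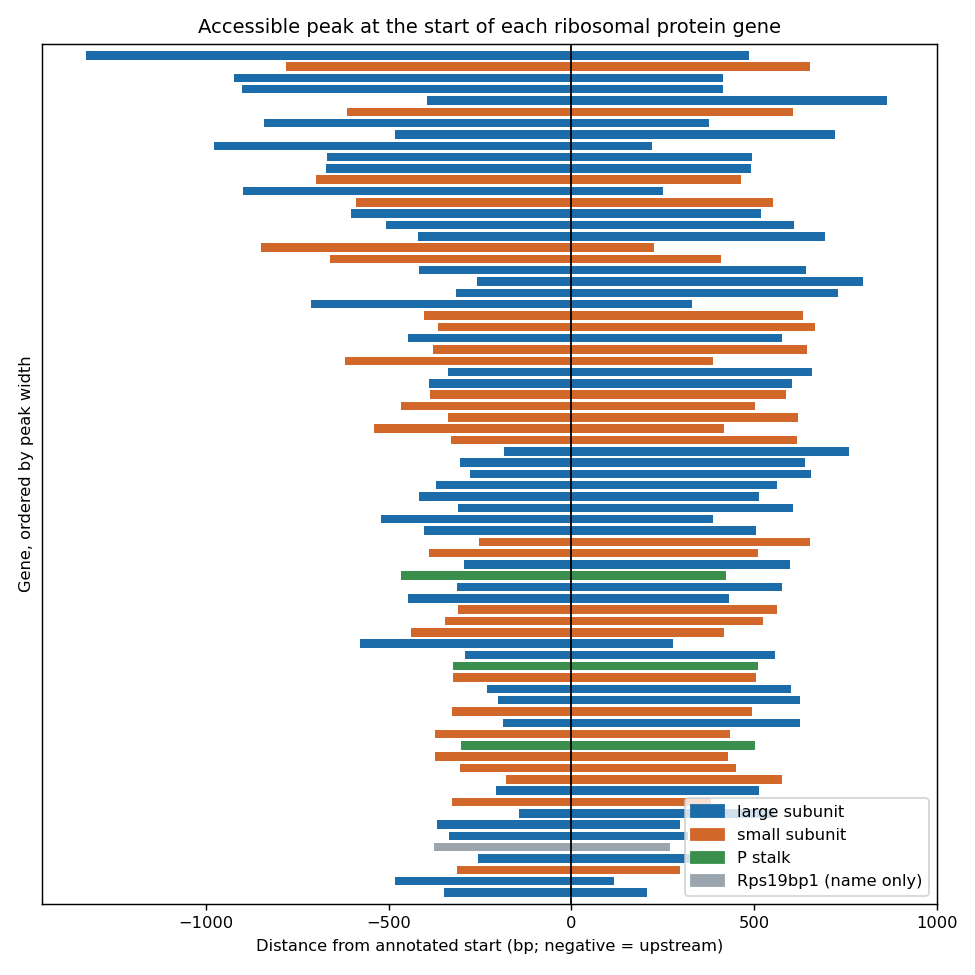
Extent of the peak at each of the 75 multi-exon genes relative to the main annotated start (x axis, bp, negative values upstream along the gene's strand), ordered by width from Rpl7 at the top (1817 bp) to Rpl35 at the bottom (556 bp) and colored by subunit, with Rps19bp1 in gray. Every bar crosses the start, and bars extend a median of 378 bp to its left and 514 bp to its right.

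Small nucleolar RNAs, which guide modification of ribosomal RNA, lay within 30 of the 83 genes (36.1%, against 1.23% of other multi-exon genes), 58 in all. Rpl4 held 5, and Rpl13a and Rpl7a held 4 each. Of the 58, 2 lay inside the peak at the start of their host, one of them at Rps20. Hosts had a peak in 28 of 30 cases where the median peak spanned 924.5 bp, and the other 53 genes had one in 47 cases, with a median of 961 bp.

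Short motif cores were counted in the promoters and compared by description only. Between 250 bases before and 50 bases after the start, on both strands, GGGCGG was present in 53.0% of the 83 promoters, against 74.3% of other CpG-rich promoters and 45.5% of mitochondrial ribosomal protein promoters. CCGGAAG was present in 32.5%, 19.4% and 35.1%, in the same order. TATAAA, the core of the TATA box, was found in 13.3%, 5.13% and 7.79%, and in 13.2% of all other coding promoters. In those promoters GGGCGG stood at 44.9% and CCGGAAG at 11.2%. The cores AANATGGCG (YY1), CGCNTGCG (NRF1), CCAAT (NFY) and CACGTG (MYC) were held by 8.43%, 16.9%, 32.5% and 9.64% of the ribosomal protein promoters, by 5.98%, 21.1%, 37.0% and 11.3% of other CpG-rich ones, and by 3.3%, 10.8%, 37.7% and 7.92% of all other coding ones. Mitochondrial ribosomal protein promoters held them in 13.0%, 22.1%, 40.3% and 7.79%. TGGGAA, the core bound by RBPJ, the DNA-binding factor of the Notch pathway, was held by 28.9% of the ribosomal protein promoters. It was held by 24.7% of mitochondrial ribosomal protein promoters, 19.5% of other CpG-rich promoters and 23.8% of all other coding promoters. CAGCTG, an E-box, was held by 7.23% of the ribosomal protein promoters, against 15.6% of mitochondrial ribosomal protein, 13.0% of other CpG-rich and 15.4% of all other coding promoters. A match is a string of letters and not a bound site.

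**Figure D4:**
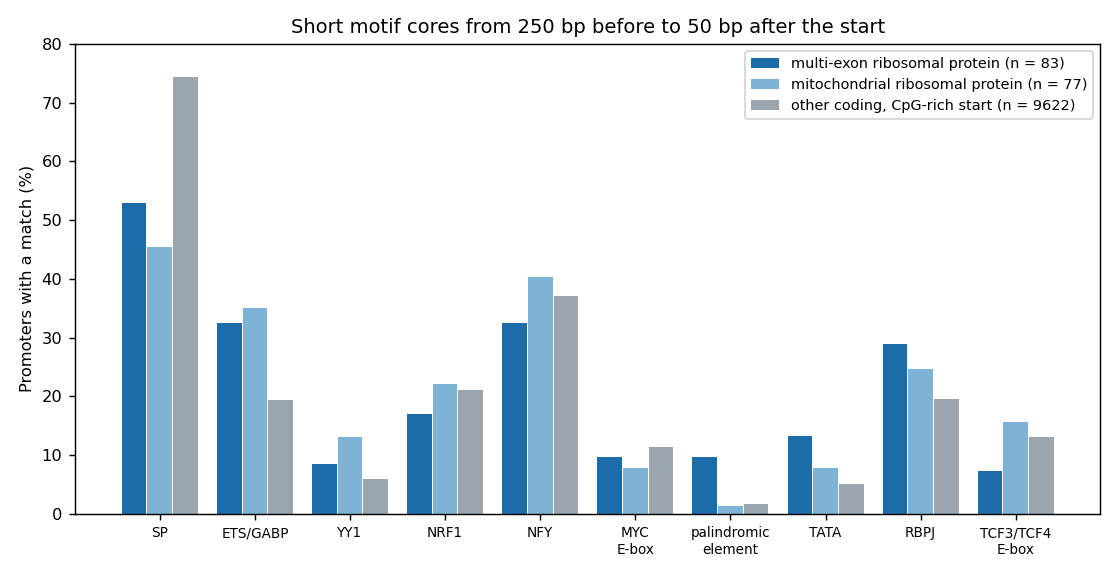
Percentage of promoters that hold each of 10 short cores on either strand from 250 bp before to 50 bp after the start (y axis), for the multi-exon cytosolic genes, the mitochondrial ribosomal protein genes and other coding genes with a CpG-rich start. The palindromic element stands at 9.64%, 1.3% and 1.66%, and the SP core at 53.0%, 45.5% and 74.3%.

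The palindromic promoter element TCTCGCGAG was held by 8 of 83 promoters (9.64%), against 1.66% of other CpG-rich promoters, 1.3% of mitochondrial ribosomal protein promoters and 0.841% of all other coding promoters. Windows around 5 of the 8 matches are printed from mm9 along the gene's strand with the element in capitals. Rps6 and Rps28 follow the rule for named genes, and the others were chosen after their matches were seen.
Rpl12 (chr2:32817168-32817197, plus strand): ggccagcggtTCTCGCGAGAgctgagcttt
Rpl26 (chr11:68715032-68715061, plus strand): gctccgagacTCTCGCGAGAtctcgcggca
Rpl27a (chr7:116662677-116662706, plus strand): cgcctgctacCTCGCGAGActtcgtgagct
Rps6 (chr4:86503303-86503332, minus strand): cgccggctgtTCTCGCGAGAacttagagcg
Rps28 (chr17:33961489-33961518, minus strand): ccgcgtgcggTCTCGCGAGAgcgaaagtga

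Relative to the main start, with negative values upstream, the element began at -82 in Rpl12, -43 in Rpl26, -6 in Rps6, -1 in Rps28 and 26 in Rpl27a. In 7 of the 8 genes the start lay in a peak.

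Around the genes, a further peak that was not at a start of the gene lay within 10 kb of the gene in 47 of 83 cases (56.6%, interval 45.9 to 66.8), against 54.3% of other multi-exon genes. These genes are short, with a median length of 3368 bp against 19987 bp. Measured over 10 kb on each side of the main start, a comparison added after the data had been seen, the shares were 51.8% and 29.5%, and 45.5% for mitochondrial ribosomal protein genes. There were 70 different further peaks, 678.5 bp wide at the median, of which 39 lay within 1 kb of a start of another coding gene. Rpl3l had 4 further peaks, and Rpl11, Rpl13a, Rpl18, Rpl7l1 and Rplp2 had 3 each.

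The single-exon members had almost no peaks. Of the 55 genes, 2 had a peak within 1 kb of the start (3.64%, interval 1.0 to 12.3), compared with 11.1% of other single-exon coding genes, and none held its start inside a peak. Rpl21-ps7 lay 198 bp from a peak of 250 bp (chr17:83687439-83687688), and Rpl9-ps6 lay 983 bp from a peak of 386 bp (chr19:32539679-32540064). Genes annotated as pseudogene types with the same symbol pattern had a peak in 2 of 98 cases (2.04%). A CpG-rich start was found in 2 of the 55 single-exon members, with a median CpG ratio of 0.37. Sequence found elsewhere in the genome at 90% identity or more covered a median of 51.6% of the window around their starts, against 0.0% for the multi-exon genes (highest 55.5%, at Rpl37a), and the part of ambiguous read placement in the low share was not tested.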

How the data were processed

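ATAC-Seq was performed on 6 libraries of Beko cells, 3 with GSI and 3 with DMSO, grouped by their labels. As the methods of the study describe, the authors trimmed reads with trimGalore, aligned them to mm9 with HISAT2 (version 2.2.1 per the labels), removed duplicates with Picard, called peaks with MACS2 without an input, retained peaks found in 3 out of 6 libraries and took out regions on a blacklist (use of MSPC, stated for the ChIP-Seq replicates, is not stated separately for ATAC-Seq). The deposited list holds chromosome, start and end, and the deposited score is 0 for every peak and was not used. A shift of read ends for the transposase offset is not given in the sources used here. Depth per library was not used, since the list has no value per library.

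Starts counted from 0 were printed counted from 1. Genes and sequence came from NCBIM37 (the build of mm9) with GENCODE vM1. The main start is the start shared by most transcripts, or in a tie the most upstream one. It was taken among the starts inside the peak where the peak holds any. In 73 of 83 multi-exon members no start is shared, and these include members with 1 transcript. A peak belonged to a gene within 1 kb of any start. Copies elsewhere were searched with minimap2 2.31. Python 3.11.15, numpy 2.4.6, scipy 1.17.1, pysam 0.24.0 and matplotlib 3.10.9 were used, and the scripts were tested on simulated data.

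Members, lists and alternatives were chosen with earlier results of these data known. The text names all multi-exon members without a peak, single-exon members with one, the 5 widest and 5 narrowest peaks, the genes next to the 1 kb limit, the 3 members with most further peaks (with ties), X-linked members, 6 paralog pairs and 8 genes of known role, and values of some genes that fall under this rule are not reported here. Lists of markers, other TOP genes, ribosome biogenesis, mitochondrial ribosomal proteins and Diamond-Blackfan anaemia were written by hand or taken by symbol. In the list of other TOP genes, 18 of 20 symbols matched the annotation. The alternatives concerned the distance, the starts used, a minimum peak width of 500 bp, joined peaks, the members and the pyrimidine definition.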

Additional observations from a re-analysis of the deposited data

How the results depend on the processing

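The share of multi-exon genes with a peak was 89.2% to 92.1% under every alternative tried for it, and the median width was 913.5 to 946 bp. Of the alternative values, 21 stayed within the interval of the reported one, 9 moved and 1 reversed, the median difference between downstream and upstream reach, which was -167 bp from the most downstream start inside the peak (chosen after seeing the data). Requiring the start inside the peak, or peaks of at least 500 bp, gave 0% for single-exon members. Other single-exon coding genes stood at 8.88% and 9.85% in the same order. A further peak was found for 33.7% of multi-exon genes within 5 kb, 84.3% within 20 kb and 95.2% within 50 kb, and for 41% with peaks of at least 500 bp. The share with a pyrimidine start was 3.61% at the 5′ end of the gene only (2.2% of other multi-exon genes), 51.8% with C allowed within 2 bp of the start (22.6%), and 3.61% at the main start only (2.07%), the last chosen after seeing the data. The other multi-exon genes stood at 42.8%, 66.5%, 78.8% and 38.5% for further peaks in the same order.

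No paired analysis was possible because 1 merged list carries no value for any single library, and leaving out a library was not run for the same reason. A missing peak means only that no peak was left after the authors' threshold on libraries and their blacklist, and a peak present in 1 treatment cannot be told from one present in both.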

Other observations

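Beyond the ribosomal proteins themselves, the other genes known for TOP mRNAs included 7 of 18 with an annotated pyrimidine start (38.9%). The share was 6.74% over the multi-exon coding genes outside the ribosomal protein family. Among the 239 other coding genes that host small nucleolar RNAs, 175 had a peak within 1 kb of a start (73.2%), with a median width of 977 bp. The 1311 other multi-exon genes with a pyrimidine start had a peak in 63.8% of cases.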
